A study of Mus musculus with 2 samples.

Results

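Circadian clock genes were examined in group 2 innate lymphoid cells (ILC2s) sorted from mouse lung. The set comprised 10 genes, listed by name under no rule on their levels: Clock, Arntl, Per1, Per2, Ciart, Bhlhe40, Nr1d1, Nr1d2, Dbp and Tef. All 10 were among the 32285 genes of both count tables, and levels were taken from barcodes that had 500 or more detected genes and no more than 10% of their UMIs from mitochondrial genes. A unique molecular identifier (UMI) marks 1 captured transcript, so PCR copies count once.

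The study compared WT C57BL/6J mice with Pac1-/- mice, which lack the phosphatase encoded by Dusp2, to learn how its loss alters ILC2s. The mice were 6 to 8 weeks old and sex-matched. They were kept in a 12-hour light and dark cycle. Live lung cells without lineage markers that bore CD90.2, Sca-1 and ST2 were sorted, and cells of 4 to 5 mice were pooled into 1 droplet-based scRNA-Seq library per genotype, after tissue digestion at 37°C for 1 hour. The genotype is that of the whole mouse and not of ILC2s alone, and no label ties a barcode to a mouse. The hour at which the mice were killed, which bears on every clock gene, is not given in the sources used here, so time of day and genotype cannot be told apart for any difference between the libraries.

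The mammalian clock is a feedback loop of transcription that runs in nearly every cell type. CLOCK and BMAL1 (the product of Arntl) bind E-box sequences and drive the Per and Cry genes, whose proteins then repress CLOCK and BMAL1. They also drive Nr1d1 and Nr1d2, which encode REV-ERB repressors that act on Arntl through ROR response elements, and Dbp and Tef, which encode activators that act through D-boxes, so that in mouse tissues Dbp and Nr1d1 peak at about the opposite time of day from Arntl. Several of these genes also answer to signals other than the clock: Per1 is induced by cAMP and glucocorticoids, and Bhlhe40, a repressor of E-box genes, is induced by activation of lymphocytes.

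The WT library held 10866 barcodes, of which 8394 passed with 54579034 UMIs and a median of 4186.5 UMIs, and the Pac1-/- library held 9495, of which 7087 passed with 58338886 UMIs and a median of 5577 UMIs. Dusp2 had 1419 UMIs in WT and 5 in Pac1-/- cells. The ILC2 markers Gata3 and Il1rl1 were found in 88.8% and 91.9% of WT and in 90.7% and 92.9% of Pac1-/- cells. Xist, the transcript of the inactive X chromosome, had 4 UMIs in each library. The libraries shared 29 barcodes, 15 of which passed in both. Among markers of other lineages, summed erythroid markers came to 76.1 UMIs relative to a library total of 1000000 (CPM) in WT and 269 in Pac1-/- cells, with all 4 genes higher, and myeloid markers to 1.58 and 6.15, with Csf1r and Itgam at 0 in WT and S100a8 at 0 in both. T cell markers came to 315 and 474 with Cd8a at 0 in both, but of the 4 with at least 50 UMIs Cd3e, Cd3d and Trac were past 1.5-fold lower in Pac1-/- cells relative to the median gene and 1 lay above it. Epithelial markers came to 54.9 and 79.3, and of 4 genes 3 lay above the median gene, with Sftpc past 1.5-fold higher at a log2 ratio of 5.21 and Cdh1 past it in the lower direction at -1.84. B cell markers came to 13.2 and 25.8, with Cd79a, Ms4a1 and Igkc past 1.5-fold higher, and mast cell and basophil markers to 13.2 and 28.6, with Cpa3 and Mcpt8 past it. A difference between genotypes rests on 1 library each and could not be checked in replicates, so it was given without a test, and the 95% intervals given in parentheses cover counting error only.

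Sequences upstream of the members were read from RefSeq promoters on GRCm38.p6, which run from 250 bases before to 50 bases after a start site. For 8 of the 10 members a promoter was found, 13 promoters in all. Per2 and Bhlhe40 had none. Both strands were searched for the E-box CACGTG, the D-box TTACGTAA or TTATGTAA, the cAMP response element TGACGTCA, its core TGACG, which is part of the full element, and the core of the ROR element, TAGGTCA or TGGGTCA. The promoters below are shown because they carry the elements of the loop or of cAMP, in members that were higher (Ciart) or lower (Per1 and Arntl) in Pac1-/- cells relative to the median gene. Capitals mark the matches.
Ciart, chr3:95882179-95882478 (minus strand): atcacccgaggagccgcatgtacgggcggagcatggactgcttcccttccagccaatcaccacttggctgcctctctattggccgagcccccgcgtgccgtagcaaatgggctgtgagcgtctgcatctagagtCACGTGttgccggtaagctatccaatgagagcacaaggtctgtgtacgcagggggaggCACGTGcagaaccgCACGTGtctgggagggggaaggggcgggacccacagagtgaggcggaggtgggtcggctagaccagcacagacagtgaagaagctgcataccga
Per1 upstream start, chr11:69098699-69098998 (plus strand): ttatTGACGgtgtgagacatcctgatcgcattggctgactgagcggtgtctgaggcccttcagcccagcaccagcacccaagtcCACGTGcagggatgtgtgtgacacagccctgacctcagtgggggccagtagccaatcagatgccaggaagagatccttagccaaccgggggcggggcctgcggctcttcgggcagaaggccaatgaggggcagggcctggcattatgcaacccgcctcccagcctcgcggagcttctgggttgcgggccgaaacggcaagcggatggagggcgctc
Per1 downstream start, chr11:69099902-69100201 (plus strand): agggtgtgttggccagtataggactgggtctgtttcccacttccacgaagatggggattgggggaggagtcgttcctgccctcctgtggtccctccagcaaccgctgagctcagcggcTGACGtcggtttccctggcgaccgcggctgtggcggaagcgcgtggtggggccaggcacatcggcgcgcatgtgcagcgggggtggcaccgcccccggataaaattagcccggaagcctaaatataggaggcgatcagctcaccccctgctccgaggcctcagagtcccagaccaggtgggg
Arntl, chr7:113207261-113207560 (plus strand): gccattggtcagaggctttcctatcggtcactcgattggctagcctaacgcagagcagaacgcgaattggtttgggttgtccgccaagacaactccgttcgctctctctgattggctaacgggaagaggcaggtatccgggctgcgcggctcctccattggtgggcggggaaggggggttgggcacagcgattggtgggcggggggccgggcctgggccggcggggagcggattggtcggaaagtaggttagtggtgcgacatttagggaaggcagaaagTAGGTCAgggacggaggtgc

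The Ciart promoter held 3 E-boxes, at positions -116, -58 and -44 relative to the start site. E-boxes were also present at -166 in the upstream Per1 promoter and in both Tef promoters, at -127 and -138. E-boxes were thus found in 4 of the 13 member promoters, against 7.15% of all 32851 promoters of this length, and in 3 of the 8 members with a promoter, against 8.09% of all 27025 genes with one. Both Per1 promoters held the TGACG core, at -246 and -132, which 20.8% of all promoters held. The downstream of the 2 Arntl promoters held the ROR core 30 bases past its start site, against 6.45% of all promoters. No member promoter held a D-box (1.06% of all promoters) or the full cAMP response element (1.79%). These matches describe letters in a window and were not tested for binding.

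The members spanned a wide range of abundance. Because UMIs were counted from transcript ends, the levels of different genes were set side by side without division by length. Bhlhe40 was the most abundant, with 1710 CPM (1699 to 1721) in WT and 1316 CPM (1307 to 1326) in Pac1-/- cells. Per1, which encodes a repressor of CLOCK and BMAL1, followed with 115 CPM (112 to 118) in WT and 96.0 CPM (93.5 to 98.5) in Pac1-/- cells. The REV-ERB beta gene Nr1d2 had 66.1 CPM in WT and 59.1 CPM in Pac1-/- cells, and lay next.

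Arntl, with 45.8 CPM (44.0 to 47.6), and Clock, with 45.6 CPM (43.9 to 47.5), were alike within counting error in WT. In Pac1-/- cells Clock stood at 45.5 CPM (43.7 to 47.2) and Arntl at 42.2 CPM (40.5 to 43.9). The REV-ERB alpha gene Nr1d1 had 30.8 CPM (29.3 to 32.3) in WT and 21.03 CPM (19.9 to 22.2) in Pac1-/- cells. The order of these 6 genes was the same in both libraries except that Clock lay above Arntl in Pac1-/- cells, with intervals that overlapped.

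The remaining 4 members were scarce. Tef had 6.67 CPM (6.002 to 7.39) in WT and 7.42 CPM (6.74 to 8.16) in Pac1-/- cells. Dbp had 4.27 CPM (3.74 to 4.85) in WT and 6.45 CPM (5.81 to 7.13) in Pac1-/- cells, so that its interval lay below that of Tef in WT and overlapped it in Pac1-/- cells. Ciart, which encodes a repressor of CLOCK and BMAL1, had 2.33 CPM (1.94 to 2.77) in WT and 3.81 CPM (3.32 to 4.34) in Pac1-/- cells. Per2, a core repressor of the loop, was nearly absent, with 40 UMIs in WT and 35 in Pac1-/- cells.

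**Figure D1:**
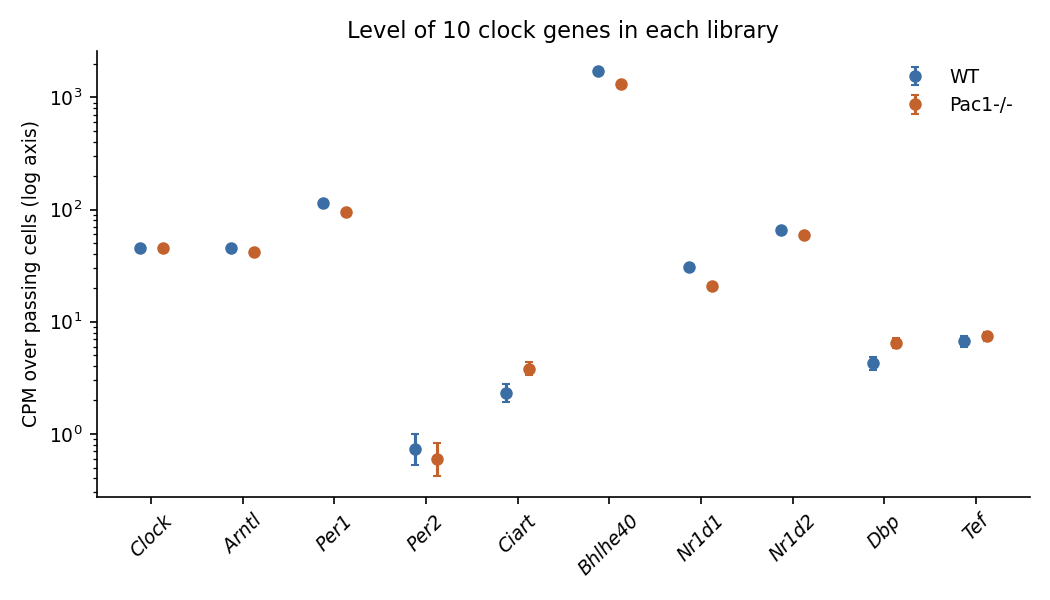
Level of each clock gene in CPM over all passing cells (log axis) in the WT library (blue) and the Pac1-/- library (orange), with exact 95% Poisson intervals, which are smaller than the points for abundant genes. Bhlhe40 stands above 1000 CPM in both libraries, Per2 stands below 1 CPM, and Dbp and Ciart are the members whose orange interval lies wholly above the blue one.

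Detection in single cells followed these levels. After each cell had been thinned to 1500 UMIs, Bhlhe40 was seen in 78.9% (78.0 to 79.8) of the 7634 WT cells against 68.8% (67.7 to 70.0) of the 6564 Pac1-/- cells, and in 90.1% and 86.7% without thinning. Per1 was seen in 14.6% (13.8 to 15.4) of thinned WT cells and 12.1% (11.4 to 13.0) of thinned Pac1-/- cells, and in 39.8% and 40.5% without thinning. Ciart was seen in 0.288% of thinned WT cells and 0.625% of thinned Pac1-/- cells, with intervals that did not overlap (0.181 to 0.436 and 0.449 to 0.846), and in 1.37% and 2.70% without thinning.

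Per2 was seen in 6 thinned cells of each library. Per1 and Bhlhe40 were the 2 members seen in at least 10% of thinned cells of both libraries, and 6 members reached this share without thinning. Because the clock runs in nearly every cell type, free RNA was gauged only from barcodes under the gene minimum. These held Bhlhe40 at 1725 CPM in WT and 1109 CPM in Pac1-/- cells and Per1 at 81.8 and 59.1 CPM, so a part of the single UMIs in a cell can be free RNA, which was not tested.

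Between the libraries, most members were lower in Pac1-/- cells, Dbp and Ciart were higher, and Nr1d1 alone passed 1.5-fold. The median log2 ratio of Pac1-/- over WT over the 12427 genes that had 50 or more UMIs came to 0.19, and each ratio between the libraries over all cells is relative to this median gene. On that scale 6 members had an interval wholly below 0 (Nr1d1, Bhlhe40, Per1, Nr1d2, Arntl and Clock), 2 had one wholly above 0 (Dbp and Ciart), and 2 spanned 0 (Per2 and Tef). Of all 12427 genes, 35.5% had an interval wholly below and 32.9% wholly above the median gene. In CPM as counted the interval of Clock spanned 0 as well.

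Nr1d1 fell from 1681 UMIs in WT to 1227 in Pac1-/- cells, a relative log2 ratio of -0.74 (-0.85 to -0.63). It was the 1 member past 1.5-fold in the lower direction, against 12.8% of all genes, and no member was past it in the higher direction, against 8.22% of all genes. In CPM as counted Nr1d1 was 1.46-fold higher in WT, and Dbp and Ciart were 1.51-fold and 1.64-fold higher in Pac1-/- cells. The share of all genes past 1.5-fold on that scale was not taken, and the median gene itself lay at 0.19 there. Its partner Nr1d2, with overlapping function, differed less, at -0.35 (-0.42 to -0.28).

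Bhlhe40 had a relative log2 ratio of -0.57 (-0.58 to -0.55), just inside the 1.5-fold limit of 0.58. Per1 had -0.45 (-0.50 to -0.39), and Per2 had -0.48 (-1.17 to 0.21), which its few UMIs left undetermined in direction. The activator genes Arntl, at -0.31 (-0.39 to -0.23), and Clock, at -0.19 (-0.27 to -0.11), lay lower by smaller amounts. Clock overlaps the annotated genes Ube2n-ps1 and Gm43658 on its own strand, so its count is uncertain to the extent that reads were divided among them.

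Dbp, a D-box activator and an output gene often used to read the phase of the clock, had 233 UMIs in WT and 376 in Pac1-/- cells, a relative log2 ratio of 0.41 (0.17 to 0.65). Among cells with a Gata3 or Il1rl1 UMI and no UMI of other lineages, the ratio of Dbp was 1.19. Ciart had 127 and 222 UMIs, a ratio of 0.52 (0.20 to 0.85). Tef, which encodes a related D-box activator, differed from the median gene by -0.03 (-0.24 to 0.17), a sign that turned to 0.15 in CPM as counted. Among the cells with a Gata3 or Il1rl1 UMI and no UMI of other lineages, Tef was at -0.57. Genes activated through E-boxes thus lay on both sides of the median gene, Dbp and Ciart above it and Nr1d1 and Per1 below it.

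The other clock genes of a list of 18 were read in the same way. Of the 17 with at least 50 UMIs, 6 lay above and 11 below the median gene, and their median ratio was -0.14 against -0.33 for the 10 members. Per3, a paralogue of Per1 and Per2, was the 1 gene past 1.5-fold in the higher direction, at 0.89 (0.64 to 1.14), with 193 UMIs in WT and 436 in Pac1-/- cells.

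The 3 genes past it in the lower direction were Nfil3, a D-box repressor that ILC2s need for their development, at -0.87, Rora, an activator of Arntl and a defining regulator of ILC2s, at -0.61, and Rorb, at -2.22 on 46 and 12 UMIs. Cry1, a repressor that carries both E-box and ROR elements, lay at 0.41 (0.28 to 0.54) with 776 and 1258 UMIs. Hlf, a further D-box activator, lay at -0.44 and Npas2, a paralogue of Clock, at -0.45. Bhlhe41, a paralogue of Bhlhe40, lay at -0.02 (-0.62 to 0.60) on 44 and 53 UMIs.

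**Figure D2:**
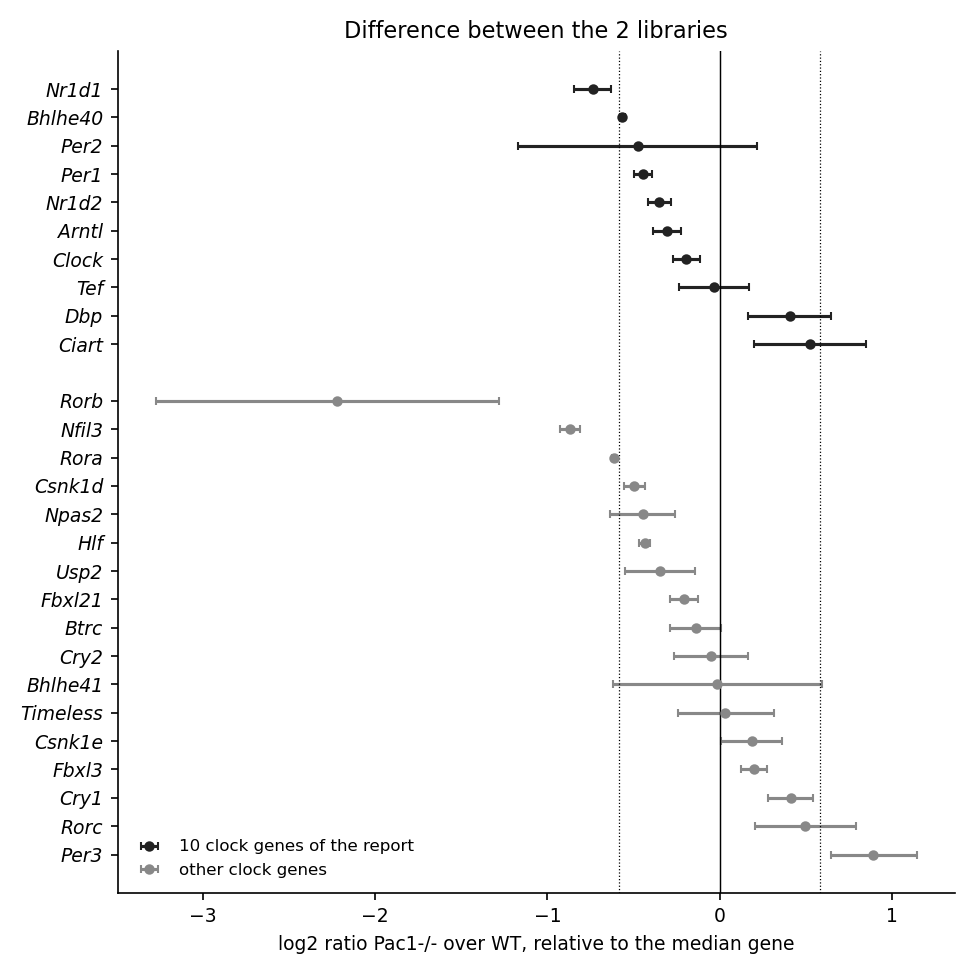
Log2 ratio of Pac1-/- over WT CPM relative to the median gene, with exact 95% conditional intervals, for the 10 clock genes (black) and the other clock genes with at least 50 UMIs (grey); dotted lines mark 1.5-fold. Nr1d1 is the black point beyond a dotted line, and Per3, Nfil3, Rora and Rorb are the grey ones.

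Signs of phase were read from ratios between clock genes within a library, which do not depend on how the libraries are scaled. The ratio of Dbp to Arntl UMIs was 0.0932 in WT and 0.153 in Pac1-/- cells, a log2 difference of 0.71 (0.46 to 0.97). The ratio of Nr1d1 to Arntl moved the other way, from 0.673 to 0.499, a difference of -0.43 (-0.57 to -0.30). Dbp and Nr1d1, both of which peak opposite to Arntl in mouse tissues, therefore gave opposite signs, and their own ratio differed by 1.14 (0.88 to 1.41).

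The remaining pairs with Arntl also lay on both sides of 0. Relative to Arntl, Ciart differed by 0.83 (0.50 to 1.17), Tef by 0.27 (0.05 to 0.49) and, outside the 10 members, Per3 by 1.20 and Cry1 by 0.72. Outside the members, Nfil3 differed by -0.56 (-0.66 to -0.47), the lowest value of the pairs with Arntl that were taken, which left out Rora and Rorb. Hlf, also outside the members, differed by -0.13 (-0.22 to -0.04). Per1 differed by -0.14 (-0.24 to -0.04), Bhlhe40 by -0.26 (-0.34 to -0.18) and Nr1d2 by -0.04 (-0.15 to 0.06). Per2 differed by -0.17 (-0.87 to 0.53), an interval that allows a higher or a lower ratio. Clock differed by 0.11, with an interval from -9.2e-05 to 0.23. Among the other clock genes, Cry2 differed by 0.26 (0.03 to 0.49), Bhlhe41 by 0.29 (-0.32 to 0.91) and Npas2 by -0.14 (-0.35 to 0.07).

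Grouped by the element that drives them, 3 of 10 genes listed as driven through E-boxes lay above the median gene (Dbp, Ciart and Per3) and 7 below, and of the 5 genes of the ROR group Cry1 lay above and the other 4 below. Neither group lay wholly on 1 side of the median gene. Cry1, which carries both elements, was counted in the ROR group alone. Whether the pools differed in phase was not tested. In the cells with a Gata3 or Il1rl1 UMI and no UMI of other lineages, 27.2% of WT and 16.2% of Pac1-/- cells, the Dbp to Arntl difference was 1.40 (0.62 to 2.20) and the Nr1d1 to Arntl difference was -0.68 (-1.15 to -0.21). The part of other cell types in either difference was not tested.

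**Figure D3:**
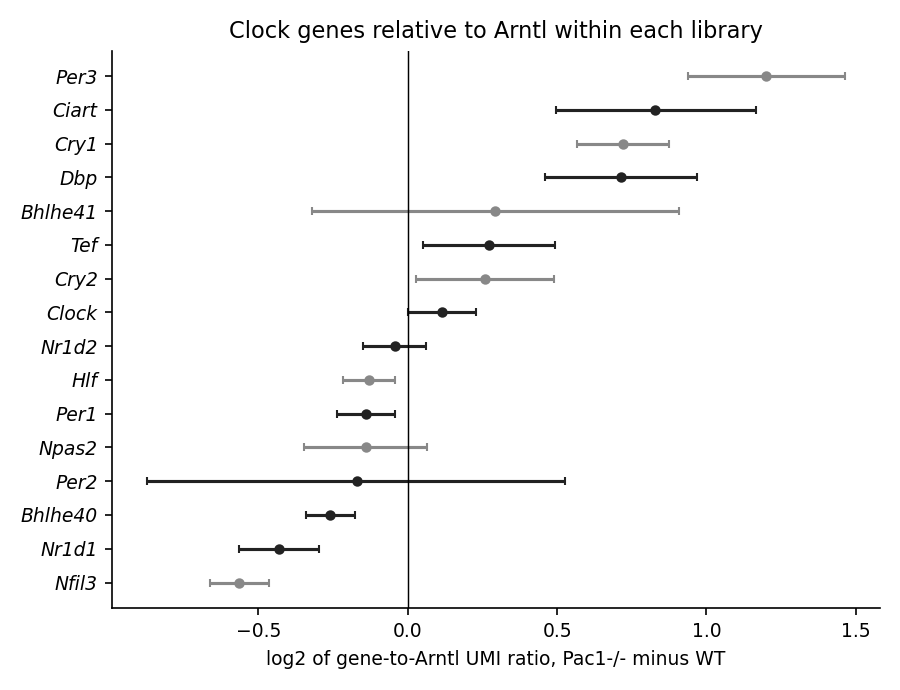
Log2 difference, Pac1-/- minus WT, of the UMI ratio of each clock gene to Arntl, with exact 95% conditional intervals; the 10 clock genes are black and other clock genes grey. Ciart, Dbp and Tef lie to the right of 0, whereas Nr1d1, Bhlhe40 and Per1 lie to the left. The intervals of Clock, Nr1d2 and Per2 include 0.

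Other gene groups that bear on Per1 and Bhlhe40 were read between the libraries in the same way. All 7 genes of a cAMP-response list lay below the median gene in Pac1-/- cells, with a median of -0.62. Of 11 immediate-early genes 9 lay above it, with a median of 0.11, and Atf3 was the 1 gene past 1.5-fold, in the lower direction. All 6 heat shock genes lay above it, with a median of 0.33. Of 7 glucocorticoid-response genes 3 lay above and 4 below, with a median of -0.0011. The part of these groups in the difference of Per1 and Bhlhe40 was not tested.

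Members were next compared between cells with and without a UMI of Il5, the eosinophil growth factor that activated ILC2s release, and of Nr4a3, a nuclear receptor gene induced by activation, after thinning to 1500 UMIs. Il5 was present in 33.1% (32.0 to 34.1) of the WT cells and 20.1% (19.1 to 21.1) of the Pac1-/- cells, and Nr4a3 in 42.1% (41.0 to 43.2) and 25.4% (24.4 to 26.5). Without thinning, Il5 was seen in 53.1% of WT and 39.5% of Pac1-/- cells, and Nr4a3 in 62.8% and 47.0%. Cells called without a transcript thus include some that held it. Ratios are here relative to the median gene of the same comparison, which lay at -0.18 in WT and -0.20 in Pac1-/- cells by Il5 status and at -0.23 and -0.26 by Nr4a3 status. The cells of a library are not replicates, so the libraries were set side by side without a test. The 8 members other than Per2 and Ciart had at least 50 thinned UMIs in each library.

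By Il5 status, no member passed 1.5-fold in the same direction in both libraries. Bhlhe40 had 1716 CPM in WT cells with Il5 and 1516 CPM in those without, a relative log2 ratio of 0.36 (0.31 to 0.40), and 1363 and 1176 CPM in Pac1-/- cells, a ratio of 0.41 (0.35 to 0.47). Per1 had ratios of 0.30 (0.12 to 0.47) in WT and 0.29 (0.04 to 0.53) in Pac1-/- cells, and Arntl had 0.33 (0.06 to 0.59) and 0.43 (0.09 to 0.76). These 3 of the 8 members had intervals above 0 in both libraries, against 13.7% of all genes. With levels from all UMIs of the same cells Nr1d1 and Nr1d2 joined them, against 23.9% of all genes, and in CPM as counted Bhlhe40 alone remained, against 6.98%. Per1 was at 0.00064 in WT cells thinned to 1000 UMIs, and Arntl at -0.072 in Pac1-/- cells without doublets.

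No member was past 1.5-fold higher by Il5 status, against 6.46% of all genes in WT and 8.02% in Pac1-/- cells. None was past it in the lower direction in WT, against 5.94% of all genes, and 2 were in Pac1-/- cells, Dbp and Tef, against 8.42%. These 2 values rested on 6 and 8 UMIs in the cells with Il5, and their intervals spanned 0. From all UMIs of the same cells Dbp was at -0.53 (-0.94 to -0.14) and Tef at -0.11 (-0.45 to 0.23).

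By Nr4a3 status, Per1 and Bhlhe40 were higher in the positive cells of both libraries. Per1 had 126 CPM in WT cells with Nr4a3 and 95.1 CPM in those without, a relative log2 ratio of 0.65 (0.48 to 0.81), and 116 and 78.1 CPM in Pac1-/- cells, a ratio of 0.83 (0.62 to 1.04). Bhlhe40 had 1849 and 1388 CPM in WT, a ratio of 0.65 (0.61 to 0.69), and 1592 and 1084 CPM in Pac1-/- cells, a ratio of 0.82 (0.76 to 0.87). In CPM as counted, Per1 was at 0.41 in WT and 0.57 in Pac1-/- cells and Bhlhe40 at 0.41 and 0.55, in the same direction but short of 1.5-fold.

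In WT, 3 members were past 1.5-fold higher by Nr4a3 status (Per1, Bhlhe40 and Nr1d2), against 8.78% of all genes, and in Pac1-/- cells 2 were (Per1 and Bhlhe40), against 9.46%. Nr1d2 had ratios of 0.59 (0.39 to 0.80) in WT and 0.57 (0.31 to 0.82) in Pac1-/- cells, on either side of the limit. Dbp was past it in the lower direction in both libraries, at -0.86 (-1.78 to -0.02) in WT, against 6.25% of all genes, and at -0.80 (-2.09 to 0.29) in Pac1-/- cells, against 7.9%, on 16 and 8 UMIs in the positive cells. Arntl was at 0.24 (-0.02 to 0.49) in WT and 0.53 (0.23 to 0.84) in Pac1-/- cells. From all UMIs of the same cells Arntl was at 0.20 (0.08 to 0.31) and 0.31 (0.18 to 0.43), but at -0.051 in Pac1-/- cells without doublets. Clock and Tef had intervals that spanned 0 in both libraries, Clock at 0.09 and -0.06 and Tef at -0.05 and -0.03. So did Nr1d1, at 0.21 (-0.13 to 0.55) and 0.29 (-0.21 to 0.77). From all UMIs of the same cells, however, it was at 0.33 (0.19 to 0.47) and 0.46 (0.28 to 0.63). With status and levels both taken without thinning it was at 0.67 and 0.63, past 1.5-fold in both. In CPM as counted Nr1d1 was at -0.02 in WT and 0.03 in Pac1-/- cells. Among cells with a Gata3 or Il1rl1 UMI and no UMI of other lineages, WT gave 0.21 and Pac1-/- cells -2.50.

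The size of these ratios also depended on the UMIs used. With status from the thinned UMIs but levels from all UMIs of the same cells, Per1 was at 0.51 (0.44 to 0.58) in WT and 0.64 (0.56 to 0.72) in Pac1-/- cells and Bhlhe40 at 0.47 (0.45 to 0.48) and 0.64 (0.62 to 0.66). Dbp was then at -0.55 (-0.95 to -0.16) and -0.36 (-0.72 to -0.01). All 3 kept their direction with intervals that excluded 0, and none was past 1.5-fold in both libraries. Over 10 alternatives, Per1 and Bhlhe40 each passed 1.5-fold by Nr4a3 status in both libraries in 7, and Dbp in 2. Cells with Nr4a3 were deeper than those without, with a median of 5272 against 4070 UMIs in WT and 6964 against 5600 in Pac1-/- cells. From the thinned UMIs, B cell markers came to 8.50 CPM with against 24.0 without Nr4a3 in WT and 33.5 against 43.3 in Pac1-/- cells. Myeloid markers came to 0.622 against 2.11 and 1.60 against 19.1. ILC2 markers (4641 against 3731 and 4424 against 3862) and T cell markers (330 against 297 and 487 against 451) were higher with Nr4a3. All 7 cAMP-response genes were past 1.5-fold higher with Nr4a3 in both libraries. Their part in the member ratios was not tested.

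**Figure D4:**
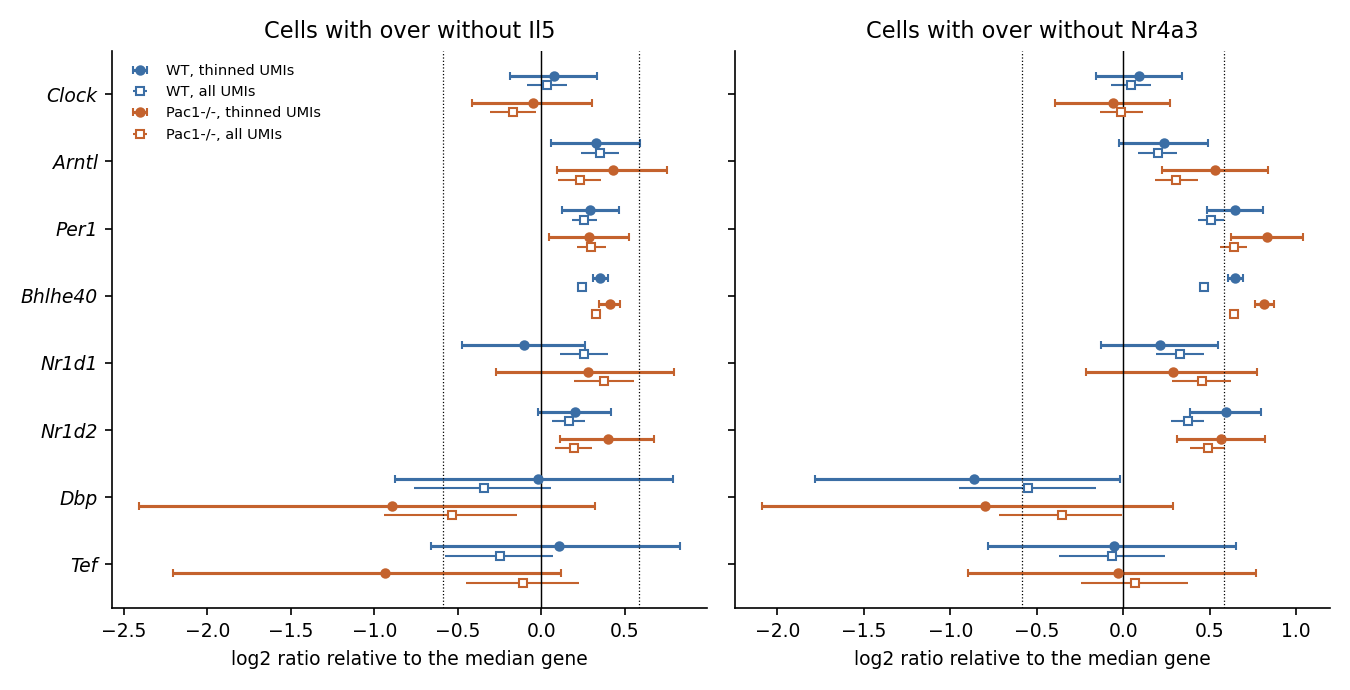
Log2 ratio, relative to the median gene, of each clock gene in cells with over cells without an Il5 UMI (left) or an Nr4a3 UMI (right), in WT (blue) and Pac1-/- (orange) cells, from UMIs thinned to 1500 per cell (filled circles) and from all UMIs (open squares), with exact 95% conditional intervals; dotted lines mark 1.5-fold, and Per2 and Ciart are left out for their low counts. Per1 and Bhlhe40 lie to the right of 0 in both panels and both libraries, and Dbp lies to the left by Nr4a3 status.

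Because fewer Pac1-/- cells had Il5 or Nr4a3, the genotypes were also compared within classes of cells of like status in the thinned UMIs. Cells that lost their Il5 or Nr4a3 UMIs by thinning count as without, so like status does not ensure like activation. The share of such cells in each class was not taken. Cells with neither transcript came to 44.1% in WT and 63.7% in Pac1-/- cells, those with Il5 only 13.7% and 10.9%, those with Nr4a3 only 22.8% and 16.3%, and those with both 19.3% and 9.16%. Ratios within a class are relative to its own median gene, which lay between 0.12 and 0.15. Within the 4 classes Per1 had 95.9, 115, 132 and 123 CPM in WT and 85.3, 92.0, 119 and 113 CPM in Pac1-/- cells. Its level was lowest in the cells with neither and highest in those with Nr4a3 only, in both libraries. The intervals of the cells with Nr4a3 only and with both overlapped in each library. So did those of the cells with neither and with Il5 only in Pac1-/- cells.

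Nr1d1 was lower in Pac1-/- cells in all 4 classes, with relative log2 ratios from -0.77 in the cells with neither to -0.47 in those with Il5 only. Bhlhe40 was lower in all 4, from -0.50 with neither to -0.33 with Nr4a3 only, and Per1 in all 4, from -0.45 with Il5 only to -0.24 with both. Each of these 12 intervals lay wholly below 0. In CPM as counted, which is free of the choice of median gene, the log2 ratio of Per1 was -0.26 over all cells and ran from -0.32 with Il5 only to -0.13 with both, and that of Bhlhe40 was -0.38 over all cells and ran from -0.36 with neither to -0.20 with Nr4a3 only.

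Nr1d2 also lay below 0 in all 4 classes, from -0.30 to -0.16, with intervals that excluded 0, so that 4 of the 8 members with at least 50 UMIs in every class had an interval below 0 in all 4, against 17.5% of all genes. Arntl and Clock lay below it in all 4, and their intervals excluded 0 in 3 classes each. Ciart was higher in Pac1-/- cells in 3 classes and lower in the cells with Il5 only, where it had 25 and 20 UMIs, and its interval lay above 0 in the cells with neither, at 0.59 (0.09 to 1.12), and in those with Nr4a3 only, at 0.81 (0.10 to 1.54). Dbp was at 0.31 (-0.02 to 0.65) in the cells with neither and at -0.26 (-0.98 to 0.45) in those with Il5 only. It was at 0.32 (-0.25 to 0.89) in those with Nr4a3 only and at 0.58 (-0.14 to 1.30) in those with both. The interval of Dbp spanned 0 in each class.

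**Figure D5:**
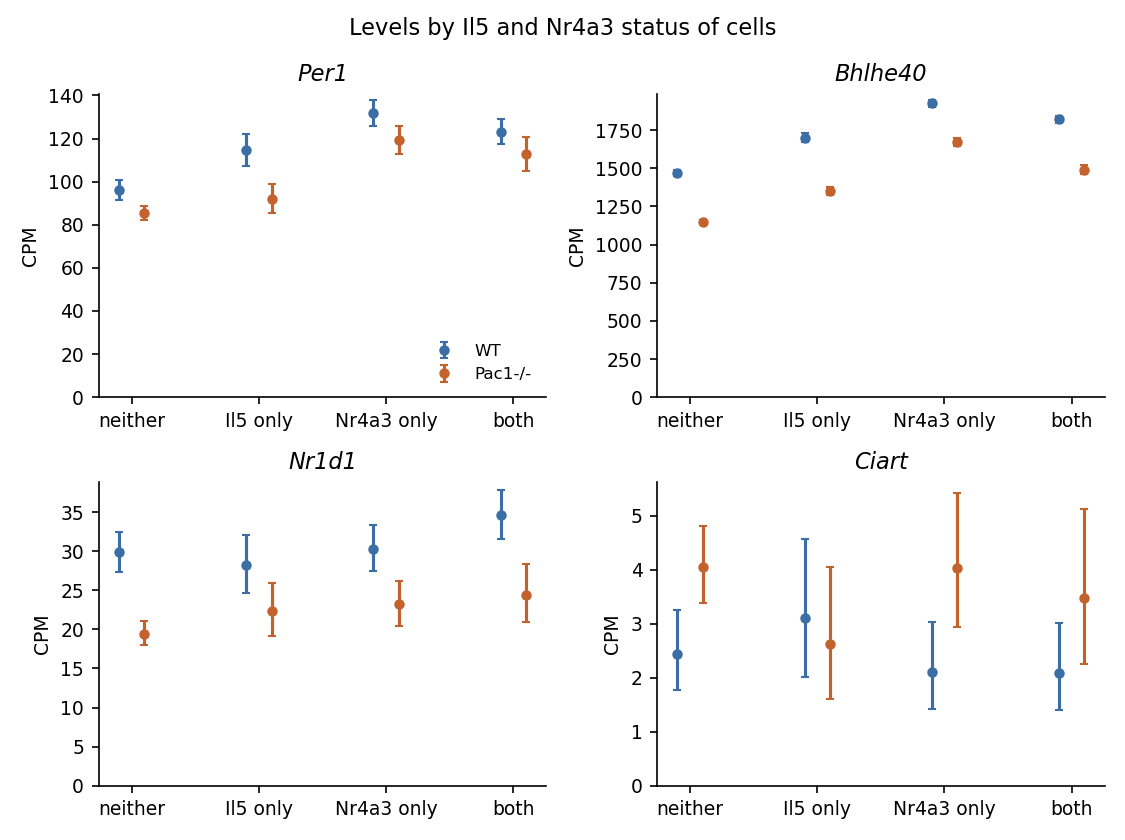
Level in CPM of Per1, Bhlhe40, Nr1d1 and Ciart in cells with neither Il5 nor Nr4a3, with Il5 only, with Nr4a3 only and with both, in WT (blue) and Pac1-/- (orange) cells, with exact 95% Poisson intervals. The orange points of Per1, Bhlhe40 and Nr1d1 lie below the blue ones in each of the 4 classes, whereas those of Ciart lie above except in cells with Il5 only.

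Last, the genes whose counts moved most like a member from cell to cell were found among 1703 genes detected in at least 10% of thinned cells of both libraries, of which Per1 and Bhlhe40 were the members. Over 7634 WT and 6564 Pac1-/- cells, Bhlhe40 was most like Nfkbia (r = 0.39 in WT and 0.42 in Pac1-/- cells), Pim1 (0.31 and 0.38) and Tnfaip3 (0.31 and 0.38). Per1 was most like Nr4a1 (0.11 and 0.13) and Junb (0.11 and 0.11), which are weak values in sparse counts. These correlations describe cells of the same libraries, which share their preparation and thinned depth, and no test was made of them.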

How the data were processed

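The labels name 1 WT and 1 Pac1-KO library, each a pool of sorted lung ILC2s. The deposited values were raw UMI counts for each barcode and gene. The authors obtained them from Cell Ranger on mm10 (version 6.1.1 per the processing notes, 4.0.0 per the file headers) and left them without normalization. Barcodes passed if they had 500 or more detected genes and no more than 10% mitochondrial UMIs. UMIs were summed over them and divided by their total (CPM). Doublets were kept, and their removal was an alternative. Intervals are at 95%: exact Poisson for CPM, exact conditional binomial for ratios and exact Clopper-Pearson for shares. Log2 ratios are relative to the median of the genes with at least 50 UMIs, and 1.5-fold was the threshold of size. For status and shares, cells were thinned to 1500 UMIs, the largest of the depths tried that retained 90% of cells in both libraries, which left out 760 WT and 523 Pac1-/- cells. Levels within classes of cells came from all UMIs. The ratio was tested on simulated data. With 1 library per genotype, no p-value was computed.

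All 10 members were named. Other clock genes were named if past 1.5-fold or in the E-box or ROR group, and the 3 most alike genes if r was at least 0.1 in both libraries. The members and lists were chosen with earlier results of these data known. Levels from all UMIs, Fos and Hspa1a status, and the classes of cells were added after the data had been seen. Annotation came from GENCODE M21 and promoters from RefSeq. Python 3.11.15 was used with matplotlib 3.10.9, pandas 2.3.3, scikit-learn 1.9.0, scipy 1.17.1 and numpy 2.4.6.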

Additional observations from a re-analysis of the deposited data

Results flagged for a closer look

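For 6 comparisons by status, the ratio of a member in cells with over cells without the transcript lay on opposite sides of the median gene in the 2 libraries. The difference between the libraries was not tested, and in each case both intervals included 0. By Il5 status, Nr1d1 was at 0.28 in Pac1-/- and -0.10 in WT cells, Tef at -0.94 and 0.11, and Clock at -0.047 and 0.077. By Nr4a3 status, Per2 was at -0.51 and 3.01, from 6 thinned UMIs in each library, Clock at -0.057 and 0.091, and Ciart at -0.10 and 0.21. From all UMIs of the same cells, Nr1d1 (0.38 and 0.26) and Tef (-0.11 and -0.25) by Il5 status and Per2 (0.59 and 1.28) by Nr4a3 status had the same direction in both libraries. Clock by Il5 status was then at -0.17 (-0.31 to -0.03) in Pac1-/- and 0.04 (-0.08 to 0.15) in WT cells, with Clock (-0.01 and 0.05) and Ciart (0.23 and -0.14) by Nr4a3 status still opposite.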

How the results depend on the processing

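No paired analysis was possible because each genotype had 1 library, and no library could be left out. The ratios of Per1 and Bhlhe40 between the libraries stayed below 0 under all 16 alternatives, from -0.66 to -0.24 and from -0.74 to -0.33. The count of members past 1.5-fold between the libraries (1, Nr1d1) was 2 without cells over 2 times the median UMIs (Nr1d1 and Ciart), 2 in the cells with a Gata3 or Il1rl1 UMI and no UMI of other lineages (Nr1d1 and Dbp), 3 with each cell weighted equally (Per2, Nr1d1 and Ciart) and 2 in CPM as counted (Dbp and Ciart). In the cells with a Gata3 or Il1rl1 UMI and no UMI of other lineages, the Dbp to Arntl difference was 1.40 and that of Nr1d1 to Arntl was -0.68. By Nr4a3 status, the count past 1.5-fold in both libraries (3) was 0 at 1000 UMIs, 1 in CPM as counted (Dbp) and 0 with levels from all UMIs. In the other 7 alternatives it was 2 to 4 and held Per1 and Bhlhe40 each time, with Dbp in 1 of them (doublets removed), Nr1d2 in 3 and Nr1d1 in 1 (no thinning). By Il5 status, the count of 0 was 1 at 3000 UMIs (Dbp) and 1 with 2 or more UMIs against 0 (Arntl). The count of members seen in at least 10% of cells of both libraries (2) was 6 without thinning, 1 at 1000 and 5 at 3000 UMIs. The ratio of Tef by Il5 status in Pac1-/- cells (-0.94) turned to 0.033 with at least 1000 genes and at most 5% mitochondrial UMIs. It turned to 0.067 without doublets, 2.04 in the cells with no UMI of other lineages, 0.84 at 1000 and 0.25 at 3000 UMIs. The ratio of Dbp by Nr4a3 status in Pac1-/- cells (-0.80) turned to 0.33 at 1000 UMIs. The cause of these shifts was not tested. The share of all genes past 1.5-fold was not taken under the alternatives, so the counts of members there have no background beside them. The counts of Per2, Ciart, Dbp and Tef limit what can be said of them in single cells.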

Other observations

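Further states of the cells, chosen after the data had been seen, were read in the same way. Fos, an immediate-early gene, was present in 75.8% of thinned WT cells and 78.4% of thinned Pac1-/- cells. Bhlhe40 was higher in the cells with Fos, with relative log2 ratios of 0.81 (0.76 to 0.87) in WT and 1.15 (1.07 to 1.23) in Pac1-/- cells, and Per1 with 0.37 (0.18 to 0.58) and 0.68 (0.41 to 0.95). In WT, Dbp at -1.04 (-1.81 to -0.26) and Clock at -0.33 (-0.59 to -0.06) lay the other way. From all UMIs of the same WT cells they were at -0.20 (-0.67 to 0.30) and -0.14 (-0.28 to 0.01), and both intervals spanned 0. In Pac1-/- cells Dbp was at 0.03 (-0.89 to 1.05) and Clock at 0.05 (-0.27 to 0.38) from the thinned UMIs. Hspa1a, a heat shock gene, was present in 24.9% of thinned WT cells and 36.3% of thinned Pac1-/- cells. From all UMIs, Ciart had 4.11 CPM in WT cells with Hspa1a and 1.58 CPM in those without, a ratio of 1.33 (0.80 to 1.85), and 4.57 and 3.18 CPM in Pac1-/- cells, a ratio of 0.49 (0.10 to 0.89).

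Between the libraries, Nr1d1, Per1 and Bhlhe40 were lower in Pac1-/- cells within the cells with and without Fos and with and without Hspa1a, with ratios from -0.92 to -0.71 for Nr1d1, -0.66 to -0.42 for Per1 and -0.74 to -0.54 for Bhlhe40, and each interval lay wholly below 0. Ciart was at -0.01 (-0.46 to 0.44) in the cells with Hspa1a and at 0.82 (0.34 to 1.31) in those without. It was at 0.33 (-0.01 to 0.67) in the cells with Fos and at 2.60 (1.08 to 4.57) in those without, on 4 UMIs in WT and 28 in Pac1-/- cells. Dbp was at 0.86 (0.43 to 1.30) in the cells with Hspa1a and at 0.14 (-0.17 to 0.44) in those without. Whether the difference of Ciart or Dbp between the libraries depends on Hspa1a or Fos was not tested.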
